A study of Mus musculus with 6 samples.

Results

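The aggrecanases and their inhibitors were followed in chondrocytes with and without silencing of Pkm2. The group held 10 genes, chosen by gene name from the 55416 genes of the deposited table. They were Adamts1, Adamts4, Adamts5, Adamts9 and Adamts15, the inhibitors Timp1, Timp2, Timp3 and Timp4, and Htra1. Aggrecan is the large proteoglycan that lets cartilage hold water, and ADAMTS metalloproteinases cut its core protein in osteoarthritis. TIMP proteins block the zinc site of metalloproteinases, with TIMP3 the main inhibitor of ADAMTS4 and ADAMTS5. HTRA1 is a secreted serine protease that also cuts matrix proteoglycans.

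RNA sequencing of primary mouse chondrocytes gave 3 libraries with a control siRNA (siNC, genotype label WT) and 3 with an siRNA against Pkm2 (siPkm2). The genotype labels of the siPkm2 libraries read PKM2 knockdown for replicate 1, PKM3 knockdown for replicate 2 and PKM4 knockdown for replicate 3. Their titles give siPKM2 for all 3, and all 3 were taken as siPkm2. The labels name knee joints of neonatal mice as the tissue, while the supplementary methods name adult mice as the source of chondrocytes. All cells were cultured in DMEM/F12 with FBS, and no cytokine is named for these libraries. No source says whether replicates came from separate animals or cultures, so p-values measure only the spread between these libraries. The study asked what PKM2, a glycolytic enzyme, does in chondrocytes.

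Levels are given in CPM, a gene's estimated count relative to the library total, scaled between libraries by edgeR's TMM factors. Levels of different genes are compared in TPM, which corrects for gene length. Values of a group are listed in the order of replicates 1, 2 and 3. Each p-value marked edgeR is from its quasi-likelihood test, adjusted after Benjamini and Hochberg over the 15269 genes with enough counts. A call required both a fold change above 2 and an adjusted p below 0.05. Libraries with the same replicate number resembled each other, so values with the replicate number as a block in the fit are given where they change a call. Pkm, the targeted gene, measured 2335, 2746 and 1674 CPM in the siNC libraries and 336, 541 and 309 CPM in the siPkm2 libraries. All siPkm2 libraries lay below all siNC libraries, and the counts do not separate the PKM1 and PKM2 transcripts. For Pkm edgeR put the log2 fold change at -2.51 (standard error 0.33, adjusted p = 0.0738), and with the block it was -2.53 (adjusted p = 0.00932, edgeR). Without siNC replicate 2 the unblocked adjusted p was 0.0495 by edgeR, and without pair 1 or pair 3 the blocked adjusted p-values were 0.0642 and 0.0799.

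Replicate 2 stood apart in both groups. The 12 chondrocyte markers, led by Col2a1, summed to 11700 and 16313 CPM in siNC and siPkm2 replicate 2, and to between 48491 and 57686 CPM in the other 4 libraries. The 15 inflammatory genes summed to 12138 and 12364 CPM in the 2 libraries numbered 2, and to between 77.1 and 367 CPM in the other 4. Lcn2, an acute-phase gene, was at 4711 and 5526 CPM in replicate 2, and at most 43.8 CPM elsewhere. Markers of other cell types were also summed, over 6 genes each. Fibroblast markers summed to 8738, 8672 and 15920 CPM in siNC and 5743, 10425 and 11694 CPM in siPkm2, higher in siPkm2 only in pair 2. These markers went both ways, and 2 of the 6, Pdpn and Col3a1, had a positive log2 fold change without the block. Col1a1 averaged 3918 ± 1568 CPM under siNC against 2609 ± 1044 CPM under siPkm2 (SD, n = 3 each). With the block its log2 fold change was -0.62 (adjusted p = 0.111, edgeR). Pdpn was at 1.19 with the block (adjusted p = 0.0272, edgeR), the only one of the 6 called, and Col3a1 at 0.23 (adjusted p = 0.242, edgeR). Osteoblast markers summed to 423, 34.7 and 252 CPM in siNC and 171, 43.7 and 81.8 CPM in siPkm2, lower in siPkm2 in pairs 1 and 3 like Adamts1 and Adamts9. Most of that sum in siNC replicates 1 and 3 was Ibsp, at 339 and 190 CPM. Unlike Adamts1 and Adamts9, Ibsp was lower in siPkm2 in all 3 pairs, whereas Alpl went from 10.3 to 25.9 CPM in pair 2. Macrophage markers summed to 61.0 and 38.4 CPM in replicate 2 and to at most 14.9 CPM in the other 4 libraries. Most of that sum in replicate 2 was Cd68, at 55.5 CPM in siNC and 33.4 CPM in siPkm2, high there like Adamts4, Adamts5 and Timp1. The macrophage marker Lyz2 was at 3.32 and 3.07 CPM in replicate 2, within its range in the other libraries. Endothelial markers reached at most 3.42 CPM and muscle markers 4.52 CPM. The leukocyte gene Ptprc was at or under 0.0932 CPM in every library, and the endothelial gene Pecam1 at or under 0.364 CPM. In bulk RNA, fewer cells of a type and less RNA per cell cannot be told apart. The part of these markers and of replicate 2's profile in the results below was not tested. Values without pair 2 are given for the 10 genes, for fibroblast markers and for the inflammatory and matrix genes that differ most with it.

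The 10 genes spanned a wide range of levels, with 3 of the 4 inhibitors and Htra1 far above the enzymes. In siNC the mean TPM was 1088 ± 183 (SD, n = 3) for Timp3, 903 ± 688 (SD, n = 3) for Timp1, 604 ± 78.5 (SD, n = 3) for Timp2 and 453 ± 45.8 (SD, n = 3) for Htra1. The enzymes followed at 69.5 ± 23.7 TPM (SD, n = 3) for Adamts1, 27.5 ± 26.0 TPM (SD, n = 3) for Adamts5, 22.7 ± 16.8 TPM (SD, n = 3) for Adamts9 and 7.45 ± 4.74 TPM (SD, n = 3) for Adamts4. Timp4 at 0.587 ± 0.524 TPM (SD, n = 3) and Adamts15 at 0.483 ± 0.306 TPM (SD, n = 3) were the lowest. Among neighbours in this order in siNC, the ranges over libraries were separate only between Timp2 and Htra1, between Htra1 and Adamts1, and between Adamts4 and Timp4. In siPkm2 the order of means was the same, except that Adamts15 at 0.873 ± 0.597 TPM (SD, n = 3) stood above Timp4 at 0.363 ± 0.401 TPM (SD, n = 3). There the ranges of Timp2 and Htra1 overlapped, and the lowest Timp1 library, at 760.0 TPM, lay just above the highest Timp2 library, at 759 TPM. Timp1 and Timp3 changed places with the replicate number. In the libraries numbered 2, Timp1 was at 1694 and 1740.4 TPM against 894 and 872 TPM for Timp3, whereas Timp3 was the higher of the pair in the other 4 libraries.

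None of the 10 genes was called without the block, by edgeR or by DESeq2, and none had an unadjusted p under 0.05 by edgeR, against 1 by DESeq2. Over all genes tested, 0% were called in that edgeR fit, with 2690 genes at an unadjusted p under 0.05 there and 430 genes called by DESeq2. With the block 890 of the 15269 genes were called, or 5.83%, and again none of the 10. With no threshold on the fold, 2 of the 10 had an adjusted p under 0.05 with the block, Adamts4 and Adamts5, both higher in siPkm2, against 12.3% of all genes higher and 10.8% lower. DESeq2 with the block put 4 of the 10 under 0.05 at any fold, adding Timp1 (adjusted p = 0.0128, DESeq2) and Htra1 (adjusted p = 0.0197, DESeq2). The share of all genes at any fold was not counted for that fit. By the unadjusted DESeq2 p, 7 of the 10 were under 0.05 there, against 5543 of the 15003 genes tested. The median log2 fold change of the 10 was 0.29 with and without the block, beside -0.02 and -0.01 over all genes tested without and with it. All 10 passed the filter on low counts.

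Within pairs of the same replicate number, 7 of the 10 genes were higher in siPkm2 in all 3 pairs, against 30.5% of all genes, and Timp4 was lower in all 3, against 30.6% of all genes. Adamts1 and Adamts9 were lower in pairs 1 and 3 and higher in pair 2. Only Htra1 had groups that did not overlap, 1 of 10 genes, against 24.3% of all genes.

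**Figure D1:**
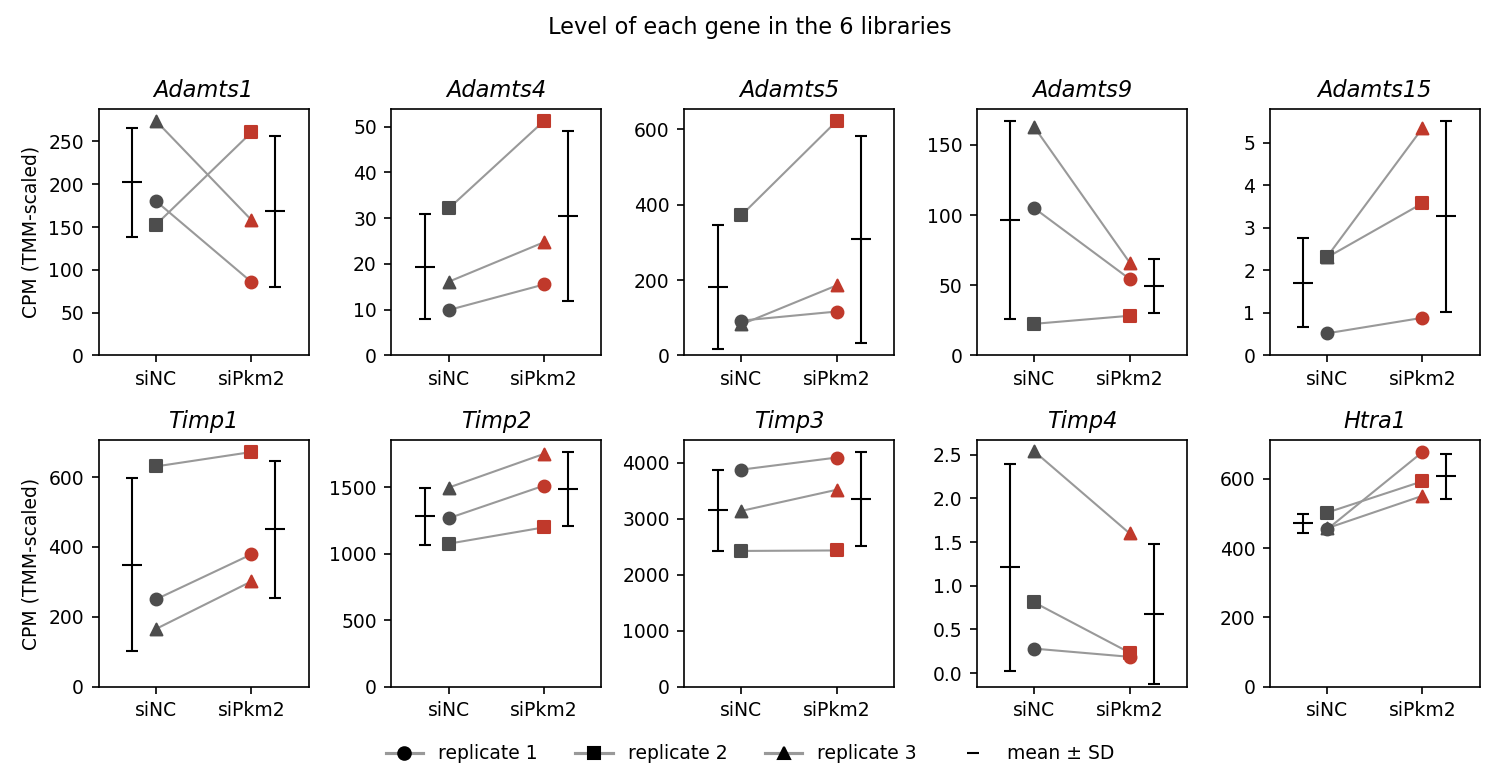
Level of each of the 10 genes in CPM (y axis, linear) in siNC and siPkm2, with a point per library, a marker shape per replicate number, lines joining libraries of the same number, and bars beside the points for the mean ± SD of 3 libraries. Adamts4 and Adamts5 are highest in replicate 2 of each group and higher in siPkm2 along all 3 lines, whereas the lines of Adamts1 and Adamts9 run both ways.

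ADAMTS4 and ADAMTS5 are the classical aggrecanases. All 5 ADAMTS enzymes here carry a zinc-binding stretch in the catalytic domain, shown because it is the part that the family shares and that TIMP3 occupies. The coding sequences below come from GENCODE M21 on GRCm38, with the codons of the 3 zinc-binding histidines and of the catalytic glutamate in capitals.
Adamts1: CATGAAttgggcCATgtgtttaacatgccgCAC
Adamts4: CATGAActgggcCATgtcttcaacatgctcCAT
Adamts5: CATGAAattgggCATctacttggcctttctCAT
Adamts9: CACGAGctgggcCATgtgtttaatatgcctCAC
Adamts15: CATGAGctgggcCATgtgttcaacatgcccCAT
In each gene an exon junction falls within these 33 bases, between exons 2 and 3 in Adamts5 and Adamts15, exons 3 and 4 in Adamts1 and Adamts4, and exons 8 and 9 in Adamts9. Adamts5 differed most from the others in this stretch, at 13 to 15 of 33 bases, while the other 4 differed among themselves at 3 to 8 bases. Adamts1 and Adamts5 are neighbours on the minus strand of chromosome 16, from 85793827 to 85803113 and from 85856173 to 85901828. Adamts4 lies on chromosome 1 from 171250421 to 171260637, Adamts9 on chromosome 6 from 92772699 to 92943492, and Adamts15 on chromosome 9 from 30899155 to 30922452. The Adamts5 stretch spans the intron between its exons, at chr16:85878015-85887826.

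Adamts5 measured 92.5, 372 and 82.4 CPM in the siNC libraries and 117, 622 and 186 CPM in the siPkm2 libraries. Replicate 2 was far above the others in each group, at 4.26 times their mean in siNC and 4.11 times in siPkm2, so the groups overlapped although every siPkm2 library was above its siNC partner. The log2 differences within pairs were 0.33, 0.74 and 1.17. For Adamts5 edgeR put the log2 fold change at 0.76 (standard error 0.83, adjusted p = 0.692), and the exact permutation test, two-sided with 3 libraries a group, gave p = 0.5, where 0.1 is the smallest possible. The unblocked value turned to -0.27 when siPkm2 replicate 2 was left out and to 1.82 when siNC replicate 2 was left out. With the block it was 0.75 (standard error 0.17, adjusted p = 0.0333, edgeR), a 1.68-fold difference, under the fold of 2 that a call needs. Without pair 1 the blocked value rose to 0.96 (adjusted p = 0.0731, edgeR), and without pair 3 it was 0.54 (adjusted p = 0.160, edgeR). No gene had an adjusted p under 0.05 in either of those fits. Without pair 2 Adamts5 stayed under 0.05 (adjusted p = 0.0202, edgeR).

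Adamts4 measured 9.93, 32.1 and 16.1 CPM in the siNC libraries and 15.5, 51.3 and 24.8 CPM in the siPkm2 libraries. Again replicate 2 was the highest of each group, the groups overlapped, and each pair differed by almost the same amount, with log2 differences of 0.62, 0.67 and 0.61. For Adamts4 edgeR put the log2 fold change at 0.66 (standard error 0.57, adjusted p = 0.606) without the block. Without siPkm2 replicate 2 that value was 0.059, and with siNC replicate 2 left out it was 1.23. With the block it was 0.65 (standard error 0.09, adjusted p = 0.0142, edgeR), a 1.57-fold difference. As for Adamts5, the blocked adjusted p by edgeR was above 0.05 without pair 1 (0.0842) and without pair 3 (0.108), and 0.00939 without pair 2. The blocked value itself was 0.65 without pair 1 and 0.66 without pair 3.

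Adamts1, which also cuts versican, and Adamts9, a versican-cutting enzyme of development, ran the other way in pairs 1 and 3. Adamts1 measured 180, 153 and 274 CPM in the siNC libraries and 85.9, 260 and 158 CPM in the siPkm2 libraries. Its siPkm2 level was lower in pairs 1 and 3, by log2 differences of -1.07 and -0.79, and higher in pair 2, by 0.77. For Adamts1 edgeR put the log2 fold change at -0.27 (standard error 0.43, adjusted p = 0.802), and -0.38 with the block (adjusted p = 0.480, edgeR). It had the opposite sign, 0.016 and 0.048, without siNC replicate 3 and without siPkm2 replicate 1.

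Adamts9 measured 105, 22.5 and 163 CPM in the siNC libraries and 54.4, 28.3 and 66.1 CPM in the siPkm2 libraries. Replicate 2 was the lowest library of each group, the reverse of Adamts4 and Adamts5. For Adamts9 edgeR put the log2 fold change at -0.96 (standard error 0.68, adjusted p = 0.514), and -0.66 with the block (adjusted p = 0.173, edgeR). Without siNC replicate 3 the unblocked value was -0.36, against -1.43 with siNC replicate 2 left out, and the blocked value was -0.32 without pair 3. The log2 differences within pairs were -0.94, 0.32 and -1.29.

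Adamts15, an aggrecan-cutting member of the family, was barely transcribed, with 13, 57 and 53 estimated counts in siNC replicates 1, 2 and 3, and 19, 92 and 117 in siPkm2 replicates 1, 2 and 3. Each siPkm2 library was above its partner and the groups overlapped. For Adamts15 edgeR put the log2 fold change at 0.93 (standard error 0.79, adjusted p = 0.593), and 0.88 with the block (adjusted p = 0.0658, edgeR). Leaving out siPkm2 replicate 3 lowered the unblocked value to 0.39, and leaving out siPkm2 replicate 1 raised it to 1.38.

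Calls among the 10 genes depended on which pairs were in the fit. With the block and pairs 1 and 3 only, 7 of the 10 genes had an adjusted p under 0.05 by edgeR at any fold, and 2 of them, Adamts9 and Adamts15, passed the fold of 2. The backgrounds in that fit at any fold were 19.8% of all genes higher and 19.3% lower. Past the fold of 2 as well, 1639 of the 15185 genes tested were called. Adamts1 (log2 fold change -0.94, adjusted p = 0.000932, edgeR) and Adamts9 (-1.13, adjusted p = 0.000569, edgeR) were lower in siPkm2. Adamts4 at 0.62, Adamts5 at 0.75, Adamts15 at 1.04, Timp1 at 0.72 and Htra1 at 0.41 on the log2 scale were higher, with adjusted p between 0.00232 for Timp1 and 0.0496 for Adamts15 by edgeR. The same 4 libraries without the block put none of the 10 under an adjusted p of 0.05 by edgeR, while 507 of all genes were called. By the unadjusted edgeR p, 5 of the 10 were under 0.05 there, against 4193 of the 15185 genes tested. The adjusted p by edgeR in that fit was 0.175 for Adamts1, 0.0608 for Adamts9 and 0.122 for Adamts5. Without pair 1 and without pair 3 under the block, by contrast, no gene of the 15740 and 15545 tested had an adjusted p under 0.05 by edgeR, with 3937 and 3598 at an unadjusted p under 0.05.

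**Figure D2:**
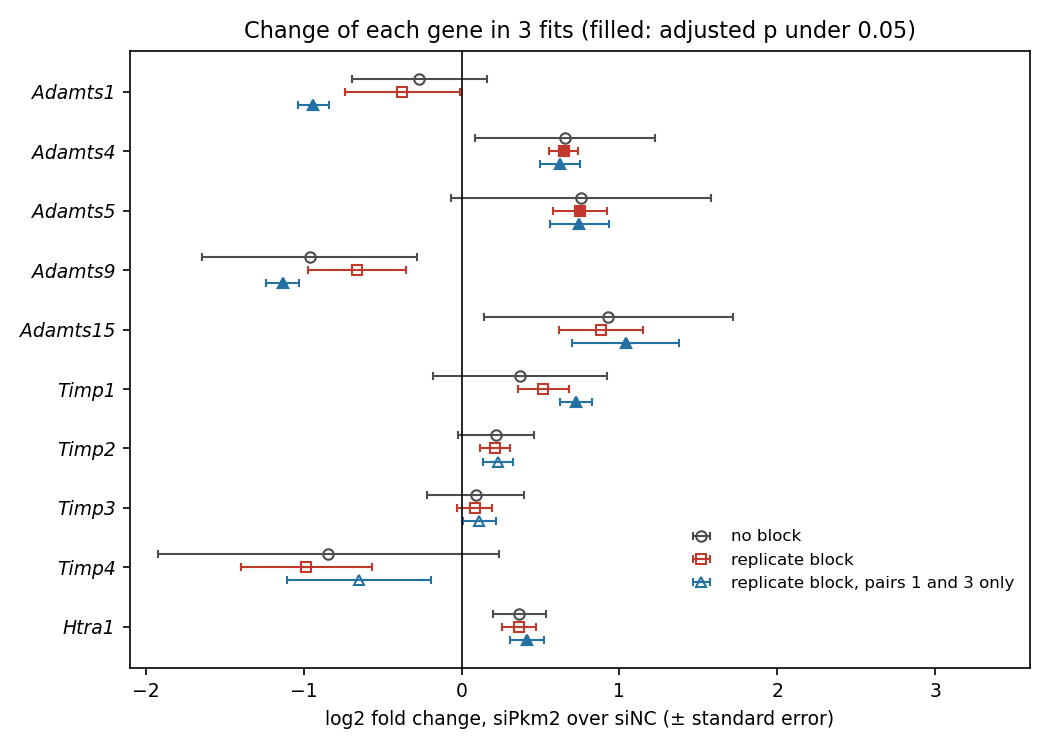
Log2 fold change of siPkm2 over siNC (x axis) with its standard error for each of the 10 genes, without a block (circles), with the replicate number as a block (squares), and with the block on pairs 1 and 3 only (triangles), where filled symbols have an adjusted p under 0.05. Adamts4 and Adamts5 keep nearly the same value in all 3 fits with shorter bars under the block, and Adamts1 moves from -0.38 to -0.94 with the block once pair 2 is left out.

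The 4 TIMP proteins hold metalloproteinases with an amino-terminal ridge whose first cysteine binds the catalytic zinc. The start of the mature coding sequence is shown for each because this is the part that faces the enzymes above, with the codons of the first cysteine, the next cysteine and the proline of the ridge in capitals.
Timp1: TGTagcTGTgccCCAccccacccacagaca
Timp2: TGCagcTGCtccCCGgtgcacccgcaacag
Timp3: TGCacaTGCtctCCCagccatccccaggat
Timp4: TGCagcTGTgcgCCTgcgcacccccagcag
Timp3 differed from the other members at 12 to 14 of these 30 bases, and the closest pair was Timp2 and Timp4, at 7 bases. On GRCm38 the stretch is in exon 1 of 5 in Timp2, Timp3 and Timp4 and in exon 2 of 6 in Timp1. It lies at chr10:86300923-86300952 in Timp3 on the plus strand and at chrX:20871111-20871140 in Timp1 on the plus strand. The Timp2 stretch is at chr11:118354983-118355012 and the Timp4 stretch at chr6:115251662-115251691, both on the minus strand.

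Timp3, the matrix-bound inhibitor, measured 3878, 2425 and 3141 CPM in the siNC libraries and 4094, 2434 and 3519 CPM in the siPkm2 libraries. Replicate 2 was the lowest of each group, and the pairs differed little, by 0.08, 0.01 and 0.16 on the log2 scale. For Timp3 edgeR put the log2 fold change at 0.09 (standard error 0.31, adjusted p = 0.914), and 0.08 with the block (standard error 0.11, adjusted p = 0.605, edgeR). Pairs 1 and 3 alone gave 0.11 with the block (adjusted p = 0.439, edgeR). The unblocked value was -0.066 without siNC replicate 2 and -0.086 without siPkm2 replicate 1.

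Timp1, an inducible inhibitor, measured 250 CPM in siNC replicate 1, 631 in replicate 2 and 165 in replicate 3, against 379, 672 and 301 CPM in the siPkm2 libraries. Replicate 2 was highest in each group, at 3.04 and 1.98 times the mean of the other 2 libraries, and the groups overlapped. For Timp1 edgeR put the log2 fold change at 0.37 (standard error 0.55, adjusted p = 0.786), and 0.52 with the block (standard error 0.16, adjusted p = 0.0706, edgeR). The log2 difference was 0.09 in pair 2, against 0.60 and 0.87 in pairs 1 and 3. Leaving out siPkm2 replicate 2 turned the unblocked value to -0.032, and leaving out siNC replicate 2 raised it to 1.12.

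Timp2, the inhibitor that also helps MMP14 activate MMP2, measured 1266, 1074 and 1496 CPM in the siNC libraries and 1511, 1197 and 1750 CPM in the siPkm2 libraries. Each siPkm2 library was slightly above its partner, and the groups overlapped. For Timp2 edgeR put the log2 fold change at 0.22 (standard error 0.24, adjusted p = 0.699), and 0.21 with the block (adjusted p = 0.156, edgeR). It was 0.23 with the block on pairs 1 and 3 (adjusted p = 0.10, edgeR), and the unblocked value ranged from 0.087 without siPkm2 replicate 3 to 0.35 without siPkm2 replicate 2.

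Timp4 was almost silent, with 7, 20 and 58 estimated counts in siNC replicates 1, 2 and 3, and 4, 6 and 35 in siPkm2 replicates 1, 2 and 3. It was the only gene of the 10 that was lower in siPkm2 in all 3 pairs, and replicate 3 was highest in each group. For Timp4 edgeR put the log2 fold change at -0.84 (standard error 1.08, adjusted p = 0.746), and -0.98 with the block (adjusted p = 0.138, edgeR). With the block on pairs 1 and 3 it was -0.65 (adjusted p = 0.301, edgeR). The unblocked value was 0.30 without siNC replicate 3 and -2.48 without siPkm2 replicate 3.

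Htra1 lies on chromosome 7 from 130936111 to 130985660. The codon of its catalytic serine is in capitals in this stretch of exon 5 of 9, at chr7:130979955-130979972, shown as the site that sets it apart from the zinc enzymes.
Htra1: ggaaatTCCggaggcccg
Htra1 measured 454, 503 and 458 CPM in the siNC libraries and 678, 593 and 551 CPM in the siPkm2 libraries. All 3 siPkm2 libraries were above all 3 siNC libraries, for which the exact permutation test, two-sided, gave its smallest possible p of 0.1. For Htra1 edgeR put the log2 fold change at 0.37 (standard error 0.17, adjusted p = 0.325), and 0.36 with the block (adjusted p = 0.0627, edgeR), a 1.28-fold difference.

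The spread of log2 CPM over the 6 libraries was split into shares of its sum of squares for the replicate number, the siRNA and the rest. The replicate number held 77.1% to 96.9% in 8 of the 10 genes, against a median of 56.6% over all genes tested. Timp3 was at the upper end of that range, with 1.90% for the siRNA. Adamts4 had 82.5% for the replicate number, 17.4% for the siRNA and 0.03% for the rest, and Adamts5 had 85.2%, 12.2% and 2.56%. Htra1 was the reverse, with 9.35% for the replicate number and 76.9% for the siRNA, against a median of 24.4% for the siRNA over all genes. In Adamts1 the rest was the largest share, at 52.9%, since its pairs differed in direction.

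**Figure D3:**
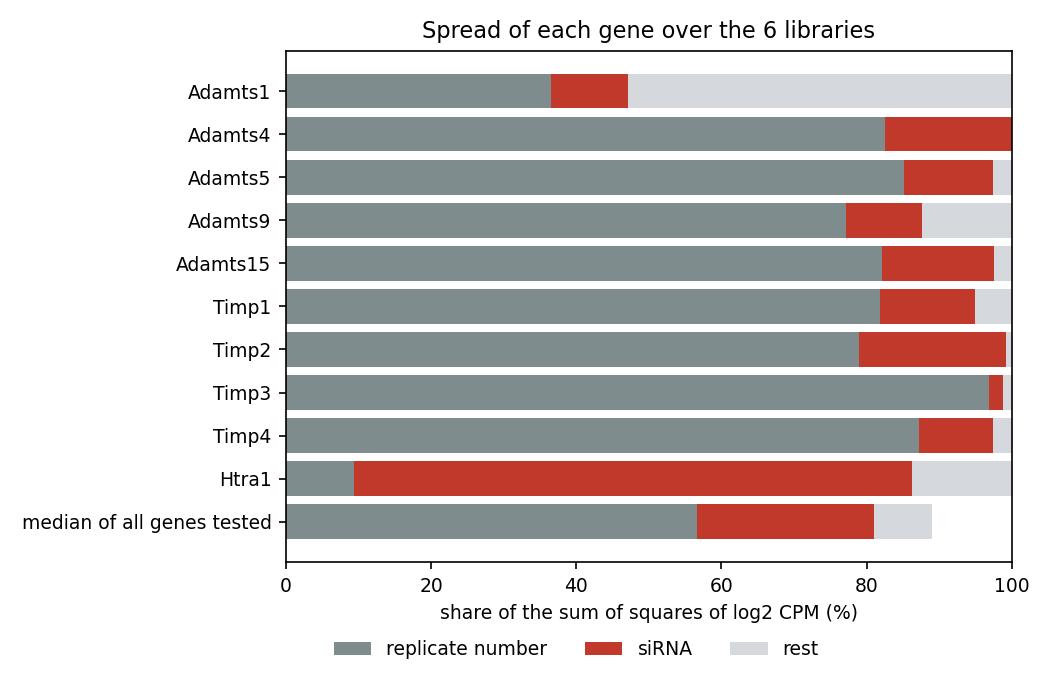
Shares (%) of the sum of squares of log2 CPM over the 6 libraries that go to the replicate number, the siRNA and the rest, in each of the 10 genes and as the median of each share over the 15269 genes tested, whose shares need not sum to 100%. The bar of Htra1 is mostly siRNA, and in 8 other genes the replicate number holds 77.1% or more.

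Enzyme and inhibitor were also set against each other within libraries, as a description with no test. The TPM of Adamts5 was 1.00%, 6.43% and 1.10% of that of Timp3 in siNC replicates 1, 2 and 3, and 1.18%, 10.5% and 2.19% in siPkm2 replicates 1, 2 and 3. The TPM of Adamts4 was 0.274%, 1.42% and 0.559% of that of Timp3 in siNC, and 0.405%, 2.21% and 0.750% in siPkm2, in the same order. Both ratios were higher in siPkm2 within every pair and higher in replicate 2 than in any other library of the group. The summed TPM of the 5 ADAMTS genes was 4.09%, 4.10% and 6.96% of that of the 4 TIMP genes in siNC, and 2.11%, 6.48% and 3.79% in siPkm2. That ratio was lower in siPkm2 in pairs 1 and 3 and higher in pair 2, as was the level of Adamts1, the most abundant of the 5 in siNC replicates 1 and 3 at 59.9% and 62.2% of their TPM. The share of Adamts5 among the 5 enzymes rose from 13.1% to 26.0% in pair 1 and from 7.89% to 25.5% in pair 3. It was 44.0% in both libraries of pair 2. In pair 1 Adamts5 went from 12.6 to 16.0 TPM while the sum of the 5 fell from 96.7 to 61.4 TPM. In pair 3 Adamts5 went from 12.3 to 26.3 TPM and the sum from 156 to 103 TPM. The share of Adamts4 also rose, from 3.57% to 8.90% in pair 1 and from 3.99% to 8.74% in pair 3.

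**Figure D4:**
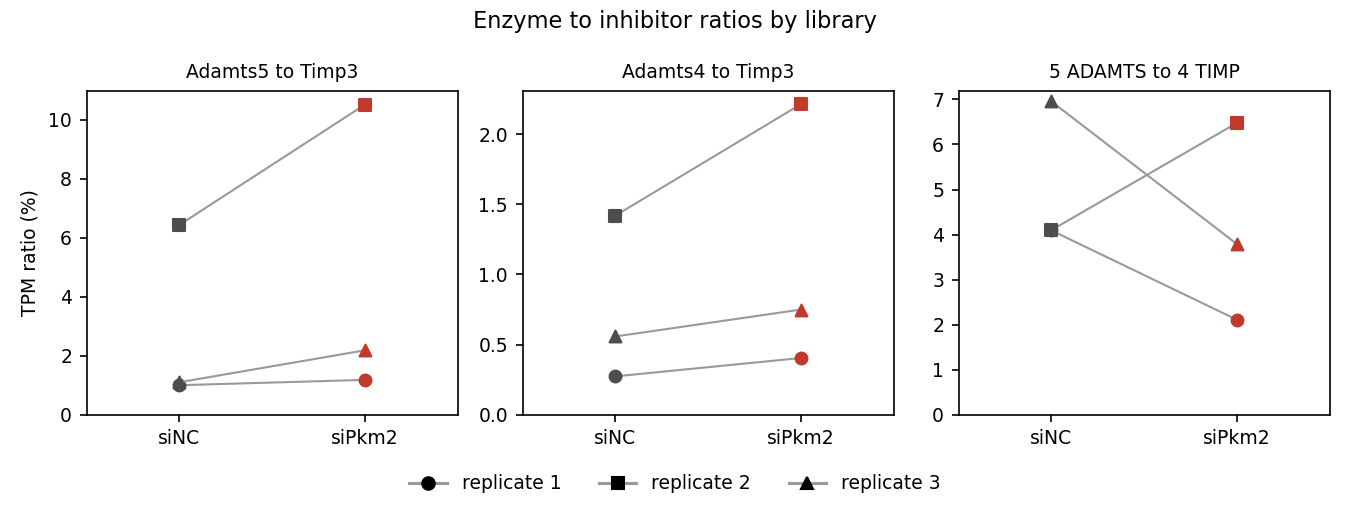
TPM ratios in percent (y axes, linear, each from 0) of Adamts5 to Timp3, Adamts4 to Timp3 and the 5 ADAMTS genes to the 4 TIMP genes, with a point per library and lines joining libraries of the same replicate number. The first 2 ratios go up along every line and are highest in replicate 2, and the ratio of the sums goes down in pairs 1 and 3 and up in pair 2.

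The other genes around the aggrecanases were read from 6 lists, and each count is of the genes tested. None of them was called without the block by edgeR, with 0 to 3 genes per list at an unadjusted p under 0.05, and DESeq2 called 6. With the block 10 were called and 23 had an adjusted p under 0.05 at any fold, against 890 and 3524 of the 15269 genes tested. Without pair 1 or pair 3 there were 0 by edgeR, as for all genes. Without pair 2 there were 25 and 44, against 1639 and 5941 of the 15185 genes tested in that fit. The counts of each list stand beside the shares of all genes, 12.3% higher and 10.8% lower at any fold with the block, and statements on overlap beside the 24.3% of all genes whose groups do not overlap. Medians stand beside -0.01 over all genes.

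Of the genes that activate, anchor or clear aggrecanases, 6 of 11 were higher in siPkm2 at an adjusted p under 0.05 with the block and 0 lower, with a median log2 fold change of 0.44 in that fit. Furin, the convertase that removes the ADAMTS propeptide, was at 125, 163 and 168 CPM in siNC and 212, 234 and 246 CPM in siPkm2, with no overlap. Its log2 fold change was 0.60 without the block (adjusted p = 0.168, edgeR) and 0.61 with it (adjusted p = 0.0160, edgeR). Mmp17, a membrane-anchored protease that can activate ADAMTS4, was called, at 1.06 with the block (adjusted p = 0.0250, edgeR), and was at 0.92 without pair 2, under the fold of 2. Sdc4, a syndecan that binds ADAMTS5, was at 0.98 (adjusted p = 0.0133, edgeR), and Mmp14 at 0.61 and Pcsk7 at 0.39 also passed at any fold with Sdc1 at 0.44. Lrp1, the receptor that takes up ADAMTS5 and TIMP3, was at 0.31 with the block (adjusted p = 0.102, edgeR).

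Among the proteoglycan substrates and their partners, 3 of 11 were higher and 2 lower at any fold with the block, with a median of 0.41. Vcan, the versican that ADAMTS1, ADAMTS5 and ADAMTS9 cut, was at 47.2, 119 and 135 CPM in siNC and 180, 311 and 352 CPM in siPkm2. The groups did not overlap, and the log2 fold change was 1.49 without the block (adjusted p = 0.180, edgeR) and 1.57 with it (adjusted p = 0.0109, edgeR). Dcn, the small proteoglycan decorin, was at 1.28 with the block (adjusted p = 0.0148, edgeR). Acan, the aggrecan gene itself, was at 2566, 233 and 2617 CPM in siNC and 3376, 470 and 3323 CPM in siPkm2. It was higher in siPkm2 in every pair and lowest by far in replicate 2, with a log2 fold change of 0.40 without the block (adjusted p = 0.881, edgeR) and 0.58 with it (adjusted p = 0.0567, edgeR). Without pair 2 the blocked value was 0.36 (adjusted p = 0.0314, edgeR).

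Of the other ADAMTS and ADAMTS-like genes, 13 of 20 were tested, and with the block 1 was higher and 3 lower at any fold, with a median of -0.11. The ADAMTS-like genes encode secreted proteins without protease activity. Adamtsl4 fell with the block, at -1.72 (adjusted p = 0.00932, edgeR), from 73.9, 144 and 101 CPM in siNC to 20.7, 44.2 and 33.0 CPM in siPkm2, with no overlap. Adamtsl3 was at -1.07 with the block (adjusted p = 0.0391, edgeR), and its groups overlapped.

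The list of other metalloproteinase inhibitors and HTRA genes also held serine protease inhibitor genes, Sparc and the Spock genes. In it 2 of 10 genes were higher and 2 lower at any fold with the block, with a median of 0.35. The 2 higher were Reck at 0.51 (adjusted p = 0.0268, edgeR) and the serine protease inhibitor gene Serpine2 at 0.96 (adjusted p = 0.0341, edgeR). The genes called were Sparc, a collagen-binding matrix glycoprotein, and its relative Spock2, both lower. Sparc was at 6918, 3911 and 8632 CPM in siNC and 1717, 846 and 1910 CPM in siPkm2, a log2 fold change of -2.13 with the block (adjusted p = 0.00932, edgeR). Spock2 was at -1.37 with the block (adjusted p = 0.0209, edgeR). The groups did not overlap in either gene.

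Of the matrix metalloproteinases that TIMP proteins block, 2 of 10 were higher and 1 lower at any fold with the block, with a median of -0.13. Mmp9, a gelatinase, fell with the block, at -1.96 (adjusted p = 0.0227, edgeR), from a level of 3.09 ± 0.842 CPM (SD, n = 3) in siNC to 0.846 ± 0.559 CPM (SD, n = 3) in siPkm2. Mmp13, the main cartilage collagenase, was at 496, 1179 and 259 CPM in siNC and 210, 1657 and 97.3 CPM in siPkm2. Like Adamts1 it was lower in pairs 1 and 3 and higher in pair 2, with a log2 fold change of 0.02 without the block (adjusted p = 0.995, edgeR) and -0.74 with it (adjusted p = 0.218, edgeR). On pairs 1 and 3 alone the blocked value was -1.34 (adjusted p = 0.000236, edgeR). Mmp3, a stromelysin, was at 710 and 623 CPM in the libraries numbered 2 and at most 8.62 CPM in the other 4, and its blocked value was 0.65 (adjusted p = 0.230, edgeR), or 1.25 without pair 2 (adjusted p = 0.0139, edgeR).

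Of the 12 inflammatory genes tested, 2 were higher and 0 lower at any fold with the block, with a median of 0.87. Il6, a cytokine, was at 0.120, 38.6 and 0.482 CPM in siNC and 6.01, 96.3 and 8.36 CPM in siPkm2, a log2 fold change of 2.62 with the block (adjusted p = 0.0426, edgeR). Cxcl1, a chemokine, was at 1.11 (adjusted p = 0.0336, edgeR), Ccl2 at 1.61 (adjusted p = 0.111, edgeR) and Lcn2 at 0.72 (adjusted p = 0.0505, edgeR), all with the block. Without pair 2 the blocked values were 4.61 for Il6, 1.43 for Cxcl1, 2.55 for Ccl2 and 0.99 for Lcn2, with adjusted p by edgeR between 8.71e-05 for Ccl2 and 0.00889 for Cxcl1. These genes shared with Adamts4, Adamts5 and Timp1 the high level in replicate 2 of both groups.

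**Figure D5:**
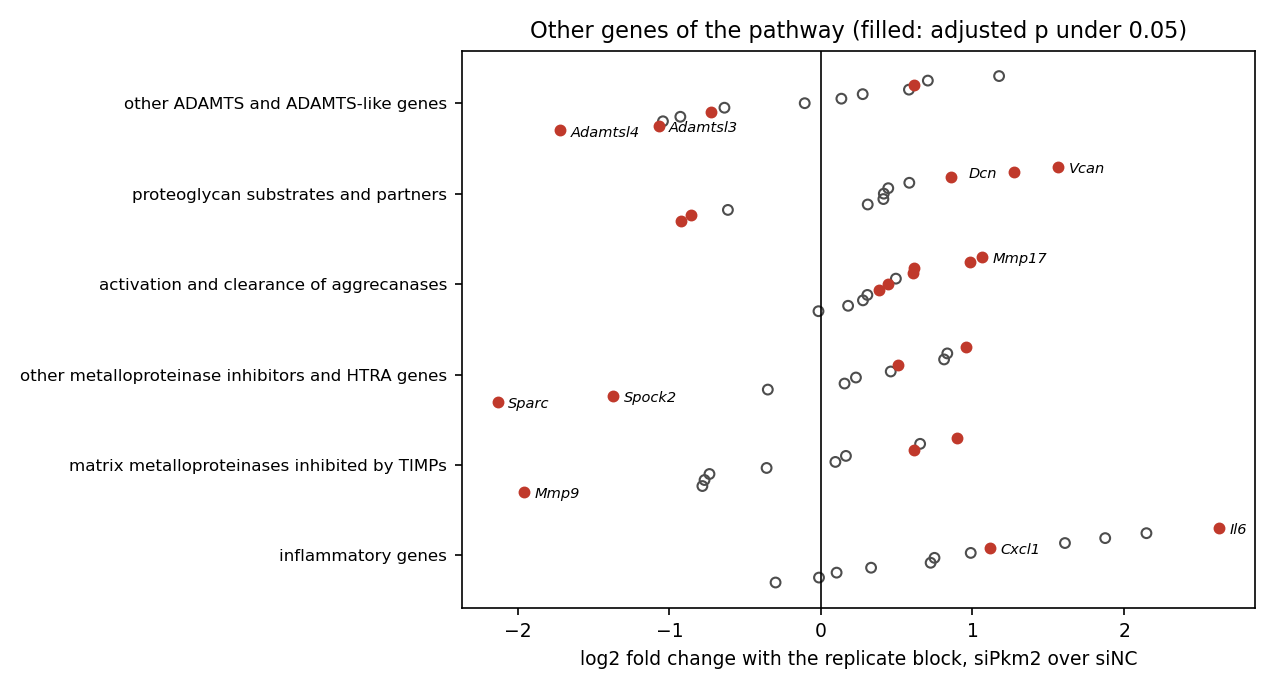
Log2 fold change with the replicate block (x axis, siPkm2 over siNC) of each tested gene in 6 lists (y axis, genes ordered by value within a list), where filled points have an adjusted p under 0.05 and names mark those past a fold of 2. The activation and clearance genes lie almost all to the right of 0, and Sparc at -2.13 and Il6 at 2.62 are the extremes.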

How the data were processed

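RNA was sequenced from 3 siNC and 3 siPkm2 libraries of primary mouse chondrocytes. The authors deposited estimated counts per gene, not normalized and 13.1% of them not whole, and TPM values, scaled by the authors for gene length and library total. The same table holds their comparison (mean TPM, fold change, log2 fold change, p-value and adjusted p-value), which was not used. The submitters' processing notes name mm9 and edgeR, and the aligner and counter are not given in the sources used here. Totals lay between 22317065 and 25691096 estimated counts. Each edgeR standard error is the absolute log2 fold change divided by the square root of the quasi-likelihood F statistic. That statistic uses a dispersion moderated across genes, so the standard error is not the gene's own spread alone. Timp4 and Adamts15 had the fewest counts of the 10 genes.

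Rounded counts entered edgeR 4.0.16 under R 4.3.3 (filterByExpr on the group, TMM, glmQLFit and glmQLFTest, no block) with limma 3.58.1. The thresholds of a call were those of the supplementary methods. CPM carry TMM factors, and log2 differences within pairs used a pseudocount of 0.5 CPM. Alternatives were the replicate block, RLE and upper-quartile factors, DESeq2 1.42.0, a filter of at least 10 counts per library or none, no fold threshold, and each library or pair left out. Leaving out both libraries numbered 2 without the block, and a pair under the block with no fold threshold, were added after seeing the data, as were the values of other genes with the block without pair 2. The fits were tested on simulated data with known changes.

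Same-numbered libraries deviated together from their group means (r = 0.72, 0.79 and 0.72 across genes, and at most 0.22 for other pairs), so the numbers were taken to pair the libraries. No source says what a number stands for. Replicates were not duplicates, since 52.7% to 73.4% of genes differed by more than sampling noise. The 10 genes and the lists were chosen with earlier results of these data known. Named genes were the 10, Pkm, the largest changes called with the block (up to 3 a list), and Acan, Vcan, Lrp1, Mmp3, Mmp13, Il6, Ccl2, Lcn2, Col2a1, Sox9, Col1a1, Ptprc, Pecam1 and Acta1 as fixed checks. Furin, Pcsk7, Mmp14, Sdc1, Sdc4, Reck, Serpine2, Cd68, Lyz2, Pdpn, Col3a1, Col1a2, Pdgfra, Thy1, Ibsp and Alpl were named after their values were seen. Of the fixed checks, the siNC and siPkm2 means of Col2a1 were 26495 ± 15573 and 22574 ± 9637 CPM (SD, n = 3 each). They were 172 ± 85.3 and 154 ± 31.5 CPM for Sox9, and 2.88 ± 1.78 and 0.847 ± 0.122 CPM for Acta1 (SD, n = 3 each). Positions and sequences come from GENCODE M21 on GRCm38, in which 52083 identifiers (94.0%) were found. Matches of the siRNA to other transcripts are not reported here.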

Additional observations from a re-analysis of the deposited data

How the results depend on the processing

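The replicate numbers were taken to pair the libraries, from their likeness in these same data, and the replicate block moved most counts. Genes called went from 0 to 890 with the block, 3524 at any fold, 1028 with DESeq2 and the block, and 430 with DESeq2 alone. They were 3 with upper-quartile factors, 9 without a filter and 3 with at least 10 counts in every library. Leaving out single libraries gave 0 to 105, the latter without siNC replicate 2. Without pair 2 the block gave 1639 and 5941 at any fold, and leaving out both libraries numbered 2 without a block gave 507. Of the 10 genes, 2 were called with the block without pair 2, 2 had an adjusted p under 0.05 with the block at any fold, and 7 did so without pair 2. Pathway genes called went from 0 to 10 with the block (23 at any fold), 6 with DESeq2, 14 with both, 25 and 44 at any fold with the block without pair 2, and 6 without the libraries numbered 2. Pkm was past the fold of 2 in every fit, and only its adjusted p crossed 0.05. It fell under 0.05 with the block (log2 fold change -2.53), with DESeq2 (-2.50) and with both (-2.52). The same held with the block without pair 2 (-2.63), without the libraries numbered 2 (-2.65) and without siNC replicate 2 (-2.34). With single libraries left out the log2 fold change lay between -2.80 and -2.34. The cause of these moves was not tested.

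Signs turned only when a single library was left out. The log2 fold change of Adamts1 then lay between -0.72 and 0.048, above 0 without siNC replicate 3 (0.016) or siPkm2 replicate 1 (0.048). That of Adamts5 lay between -0.27 and 1.82, and that of Timp1 between -0.032 and 1.12, each lowest without siPkm2 replicate 2 and highest without siNC replicate 2. That of Timp3 lay between -0.086 and 0.28, below 0 without siNC replicate 2 (-0.066) or siPkm2 replicate 1 (-0.086). That of Timp4 lay between -2.48 and 0.30, above 0 without siNC replicate 3. The value of Adamts4 lay between 0.059 and 1.23, that of Adamts9 between -1.43 and -0.36, that of Adamts15 between 0.39 and 1.38, that of Timp2 between 0.087 and 0.35 and that of Htra1 between 0.28 and 0.44. Upper-quartile factors moved the median of all genes from -0.02 to -0.09.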
